A study of Mus musculus with 6 samples.

Results

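The 10 transcription factors examined here divide the embryonic neural tube into dorsoventral progenitor domains and were measured in motor neurons (MNs) made from normal and spinal muscular atrophy (SMA) mouse embryonic stem cells (mESCs). The 10 members were matched by symbol among 34433 gene symbols, which the gene-level expression table holds in 41945 entries, and all 10 were found. Where a symbol had several entries, the entry with the highest level was taken. The members were Pax3, Pax7, Dbx1, Dbx2, Pax6 and Irx3, which mark dorsal or intermediate progenitors, and Nkx6-1, Nkx6-2, Nkx2-2 and Olig2, which mark ventral progenitors.

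RNA from 3 samples of Hb9 control MNs and 3 samples of A2 SMA MNs, all on the FVB/N background, was sequenced. The Hb9 cells are labelled wildtype at the mouse Smn gene, the A2 cells are homozygous for its targeted deletion (mSmn-/-), and by the methods of the study both lines are homozygous for the human SMN2 transgene (SMN2+/+). Both lines also carry green fluorescent protein (GFP) under the promoter of Hb9 (Mnx1), a homeobox gene of MNs. Embryoid bodies of both lines were exposed to 1 µM retinoic acid (RA) and 1 µM Smoothened agonist (SAG), which switches on the hedgehog pathway, for 5 days, and GFP-positive cells were collected by fluorescence-activated cell sorting. Each genotype is 1 mESC line, so genotype and line cannot be told apart. Levels are given as FPKM, the number of sequenced fragments of a gene after division by its exon length and by the depth of the library. The table gives 1 FPKM value per gene and genotype, the authors' combined value of the 3 samples. There is therefore no value per sample, no replicate check and no test for any difference given here, and the reads behind a value are unknown. Whether the 3 samples came from separate cultures is not given in the sources used here.

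In the developing neural tube, Sonic hedgehog (Shh) spreads from the notochord and floor plate and sets a ventral-to-dorsal gradient of signaling. Homeodomain and basic helix-loop-helix factors read the gradient: class I factors (Pax3, Pax7, Dbx1, Dbx2, Pax6 and Irx3) are repressed by Shh, and class II factors (Nkx6-1, Nkx6-2, Nkx2-2 and Olig2) depend on it. Factors that meet at a domain boundary repress each other, many through Groucho corepressors, which leaves the progenitor domains p0, p1, p2, pMN and p3 in order from the middle of the tube down. MNs arise from pMN, where Olig2 is present.

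The sequences before the transcription start sites of the 4 ventral members are shown because these 4 genes were low together in the A2 cells, and that of Pax6 is shown because its level was nearly the same in both genotypes. Each run holds the 250 bases before a RefSeq start (assembly GRCm38.p6), 5′ to 3′ on the gene's own strand. The Olig2 stretch is on the plus strand at chr16:91225300-91225549, the Nkx2-2 stretch on the minus strand at chr2:147186403-147186652, and the Nkx6-1 stretch on the minus strand at chr5:101664712-101664961. The Nkx6-2 stretch is on the minus strand at chr7:139582798-139583047, and the stretch of the first of 2 Pax6 starts is on the plus strand at chr2:105668646-105668895. Capitals mark matches, on either strand, to the core of the site bound by the Gli factors of the hedgehog pathway (GACCACC), to CATNTG, an E-box of the kind that basic helix-loop-helix factors bind, and to TATAAA, the TATA box.
Olig2: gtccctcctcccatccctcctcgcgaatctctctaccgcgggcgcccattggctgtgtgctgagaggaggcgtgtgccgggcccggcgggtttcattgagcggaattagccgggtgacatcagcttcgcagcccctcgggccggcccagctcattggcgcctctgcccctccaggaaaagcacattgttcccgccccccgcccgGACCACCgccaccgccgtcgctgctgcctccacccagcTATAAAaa
Nkx2-2: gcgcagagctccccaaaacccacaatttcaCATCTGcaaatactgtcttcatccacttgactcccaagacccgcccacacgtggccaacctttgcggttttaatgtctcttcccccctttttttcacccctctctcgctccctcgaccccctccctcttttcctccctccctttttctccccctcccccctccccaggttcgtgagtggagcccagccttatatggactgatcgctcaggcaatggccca
Nkx6-1: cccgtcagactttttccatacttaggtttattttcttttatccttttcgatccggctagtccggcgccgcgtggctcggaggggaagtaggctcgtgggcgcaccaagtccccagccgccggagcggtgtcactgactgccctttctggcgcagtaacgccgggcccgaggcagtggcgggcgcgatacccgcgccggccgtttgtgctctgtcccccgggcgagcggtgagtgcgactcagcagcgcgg
Nkx6-2: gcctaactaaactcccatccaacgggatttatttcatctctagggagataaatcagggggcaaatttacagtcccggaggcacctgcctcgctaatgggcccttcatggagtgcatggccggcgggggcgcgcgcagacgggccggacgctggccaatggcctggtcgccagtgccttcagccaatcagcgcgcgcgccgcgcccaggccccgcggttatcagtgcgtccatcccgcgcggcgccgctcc
Pax6: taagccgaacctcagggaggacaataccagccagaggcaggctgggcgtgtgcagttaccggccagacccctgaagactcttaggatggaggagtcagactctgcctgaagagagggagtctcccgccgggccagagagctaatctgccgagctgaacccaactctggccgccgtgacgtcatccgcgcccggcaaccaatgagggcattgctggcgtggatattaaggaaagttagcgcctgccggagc

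RefSeq entries matched 9 of the 10 members, with 10 start sites in all, because Pax6 has 2. Pax3 was not matched. The Gli core GACCACC was found before 1 of the 10 member starts, that of Olig2, with its first base 46 bp before the start, and before 2.34% of all 32851 mouse starts in the table. The longer Gli site GACCACCCA, which contains the core, was before 0 of the member starts and 0.225% of all starts. CATNTG was found before 3 member starts, those of Dbx2, Nkx2-2 and the other Pax6 start, and before 35% of all starts. In Nkx2-2 it reads CATCTG and lies 220 bp before the start. TATAAA was found before the starts of Olig2 and Dbx1, 2 of the 10, and before 12.4% of all starts. TAAT, the core of homeodomain sites, was before 6 of the 10 member starts and 54.9% of all starts and is not capitalised. These matches describe letters in the windows, and no binding was measured in this series.

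Each ventral member was at least 17.1-fold lower in the A2 cells, whereas Pax6 differed by 1.05-fold. Of the 10 members, 7 were at least 2-fold lower in the A2 cells, 1 (Pax3) was at least 2-fold higher, and Pax6 and Pax7 lay within 2-fold. Over the 14926 genes that reached 1 FPKM in at least 1 genotype and were above 0 in both, 22.4% were at least 2-fold lower and 6.83% at least 2-fold higher in the A2 cells. Centred on the median gene, whose log2 ratio was -0.29, the shares were 16.5% lower and 10.4% higher, and Dbx2 (-0.78) was no longer among the members at least 2-fold lower, which leaves 6. With a pseudocount of 1 FPKM, Dbx1 (-0.92), Dbx2 (-0.25) and Pax3 (0.29) all lay within 2-fold. Without the limit of 1 FPKM (20595 genes above 0 in both), the shares were 24.5% and 8.41%. At a 4-fold difference, 5 members were lower and 0 were higher, against 8.88% lower and 1.8% higher over all genes of at least 1 FPKM. Pax3, Pax7 and Dbx2 (3 members) were under 1 FPKM in both genotypes, and Dbx1 and Olig2 reached it in the Hb9 cells only.

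**Figure D1:**
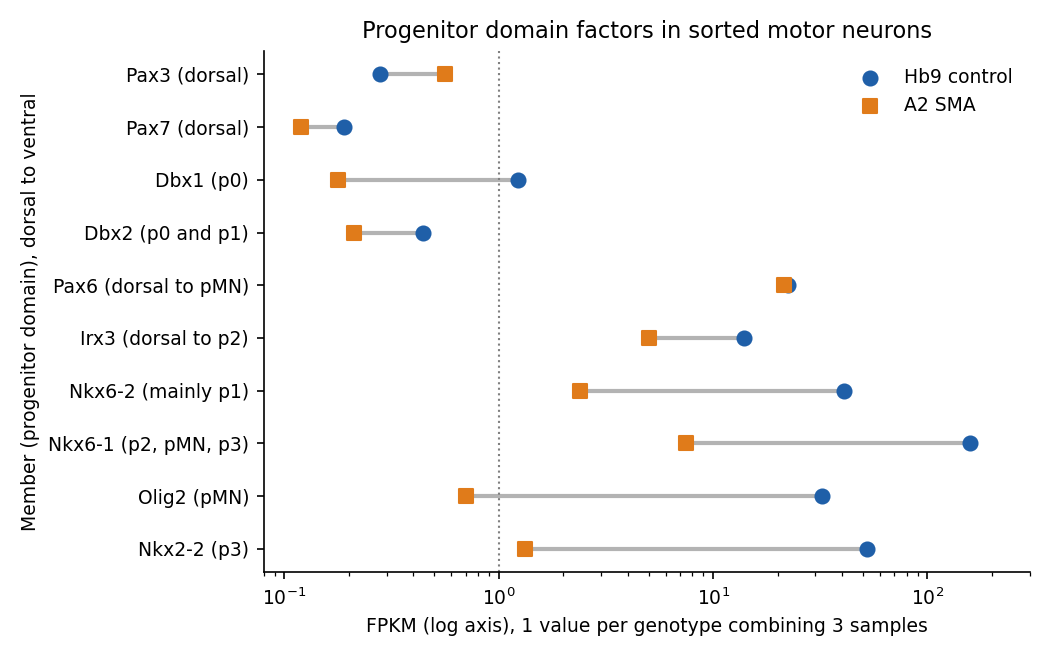
FPKM of each member on a log axis in Hb9 control (blue circles) and A2 SMA (orange squares) cells, 1 combined value per genotype, ordered from dorsal to ventral, with a dotted line at 1 FPKM. The 4 ventral members at the bottom lie between 32.1 and 158 FPKM in the Hb9 cells and between 0.704 and 7.46 FPKM in the A2 cells, while the points of Pax6 nearly coincide at 22.4 and 21.4 FPKM.

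Olig2 is the basic helix-loop-helix factor that defines pMN and directs MN and later oligodendrocyte formation. Its level was 32.1 FPKM in the Hb9 cells and 0.704 in the A2 cells, 45.6-fold lower (log2 ratio -5.51), or 2.19% of the Hb9 level. Of the 14926 genes, 40 (0.268%) had a lower ratio. With a pseudocount of 1 FPKM the log2 ratio of Olig2 was -4.28 and that of Nkx2-2 was -4.52, so the order of these members by ratio depends on how low levels are treated. In the ranking of all these genes by level, Olig2 stood at percentile 66.2 in the Hb9 cells and 5.31 in the A2 cells. The Olig2 entry spans chr16:91225795-91228922 in NCBI m37, the build of the table, and no other gene shares it.

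Nkx2-2, a homeodomain factor that defines p3, the domain just below pMN, and represses Pax6, was at 52.5 FPKM in the Hb9 cells and 1.33 in the A2 cells. This is 39.4-fold lower (log2 ratio -5.30), and 50 genes (0.335%) had a lower ratio. Its percentile by level was 79.1 in the Hb9 cells and 11.8 in the A2 cells. The Nkx2-2 locus, chr2:147003282-147157417 (NCBI m37), spans 154136 bp and also holds the antisense gene Nkx2-2as and 6430503K07Rik. Nkx2-2as was listed at 0.0139 FPKM in the Hb9 cells and 0.0084 in the A2 cells. The level of 6430503K07Rik was 5.36 FPKM in the Hb9 cells and 0.0734 in the A2 cells (log2 ratio -6.19). The sources used here do not say that reads were assigned by strand, so reads of Nkx2-2 and Nkx2-2as may not be told apart.

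Nkx6-1, a homeodomain repressor present in p2, pMN and p3, had the highest level of all members in the Hb9 cells. It was at 158 FPKM there and at 7.46 in the A2 cells, 21.1-fold lower (log2 ratio -4.40), with 163 genes (1.09%) at a lower ratio. Its percentile by level was 95.7 in the Hb9 cells and 38.4 in the A2 cells, and it lies alone in its entry at chr5:102087082-102094245 (NCBI m37). The genes with a symbol nearest to Nkx6-1 in both levels, by distance on the log2 scale over the pair of values, were Ly6h (distance 0.27), Fgfr3 (0.33) and Ednrb (0.34). Ly6h was at 137 FPKM in the Hb9 cells and 6.61 in the A2 cells, Fgfr3 at 166 and 9.35, and Ednrb at 166 and 5.94.

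Nkx6-2, a close relative of Nkx6-1 found mainly in p1, was at 40.8 FPKM in the Hb9 cells and 2.39 in the A2 cells. This is 17.1-fold lower (log2 ratio -4.10), with 235 genes (1.57%) at a lower ratio. The Nkx6-2 locus, chr7:146575008-146768696 (NCBI m37), spans 193689 bp and is shared with Inpp5a, an inositol phosphatase gene. Inpp5a was at 39.6 FPKM in the Hb9 cells and 32.1 in the A2 cells (log2 ratio -0.30), close to the median of all genes, -0.29. The ratio of Nkx6-1 to Nkx6-2 was 3.87 in the Hb9 cells and 3.13 in the A2 cells, so both genes were lower by like factors.

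The median log2 ratio of the 4 ventral members was -4.85 (range -5.51 to -4.10), and all 4 were lower at both folds. Over all genes of at least 1 FPKM the median log2 ratio was -0.29, with quartiles of -0.89 and 0.19, and 65.9% of genes were lower in the A2 cells. Measured against the median gene in place of 0, the ventral median lies 0.29 nearer to 0. In a bulk sample, fewer cells of a type and less RNA per cell cannot be told apart.

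**Figure D2:**
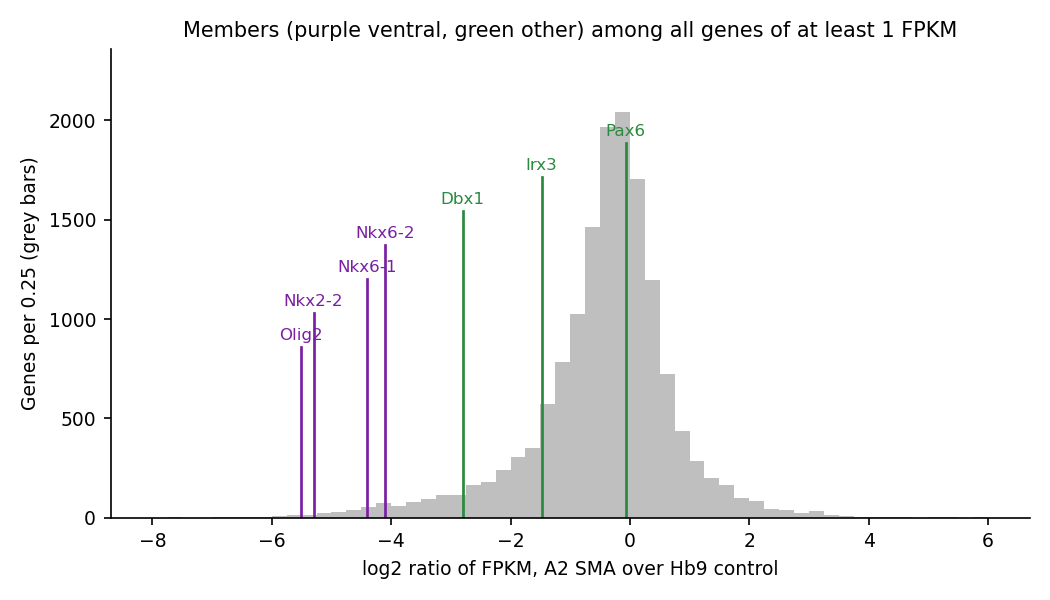
Log2 ratio of FPKM, A2 SMA over Hb9 control, for all 14926 genes of at least 1 FPKM (grey bars, genes per 0.25) with the 7 members past that limit as vertical lines, ventral members in purple and the others in green. The 4 ventral members stand in the left tail at -4.10 or lower, and Pax6 stands at -0.07, near the median of all genes at -0.29.

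Pax6, the paired and homeodomain factor present from the dorsal tube to pMN, was the member with the smallest difference. Its level was 22.4 FPKM in the Hb9 cells and 21.4 in the A2 cells (log2 ratio -0.07), or 95.2% of the Hb9 level. Of all genes, 61.9% had a lower ratio than Pax6, and against the median gene its ratio was 0.22 above. Pax6 was the fifth member by level in the Hb9 cells and the first in the A2 cells. The Pax6 locus, chr2:105376237-105744721 (NCBI m37), spans 368485 bp and also holds Elp4, an Elongator subunit gene, and the antisense gene Pax6os1. Elp4 was at 17.3 FPKM in the Hb9 cells and 19.8 in the A2 cells (log2 ratio 0.19). The Pax6os1 entry was at 0.0132 FPKM in the Hb9 cells and 0.0402 in the A2 cells. The genes nearest to Pax6 in both levels were Trmt5 (22.3 and 21.3 FPKM), Atxn3 (22.4 and 21.3 FPKM) and Rg9mtd3 (22.4 and 21.5 FPKM, Hb9 value first), each at a distance of 0.01.

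Irx3, an Iroquois homeodomain factor that borders pMN from above and represses Olig2, was at 14 FPKM in the Hb9 cells and 5.02 in the A2 cells. This is 2.79-fold lower (log2 ratio -1.48), and 13.5% of all genes had a lower ratio. Irx3 lies at chr8:94322424-94331438 (NCBI m37). D230002A01Rik, which shares the locus, was at 1.33 FPKM in the Hb9 cells and 0.475 in the A2 cells, with the same log2 ratio of -1.48. Irx3 thus lay between Pax6 and the ventral members, with a difference past the 2-fold mark that 22.4% of all genes also pass in this direction.

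The remaining members marked progenitors farther from pMN and were at low levels in both genotypes. Dbx1, which defines p0, was at 1.23 FPKM in the Hb9 cells and 0.177 in the A2 cells (log2 ratio -2.80), 6.95-fold lower, and lies at chr7:56886869-56892219 (NCBI m37). Dbx2, present in p0 and p1, was at 0.442 FPKM in the Hb9 cells and 0.211 in the A2 cells (log2 ratio -1.07) at chr15:95453994-95486391. The Dbx genes were thus lower in the A2 cells, from levels near or under 1 FPKM.

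Pax3 and Pax7 are paired factors of the dorsal tube and neural crest. Pax3, at chr1:78097842-78193709 (NCBI m37), was at 0.279 FPKM in the Hb9 cells and 0.564 in the A2 cells. It was the only member with a higher level in the A2 cells, 2.02-fold (log2 ratio 1.01), and both levels were under 1 FPKM. Pax7, at chr4:139292977-139389445, was the lowest member in both genotypes, with 0.189 FPKM in the Hb9 cells and 0.119 in the A2 cells (log2 ratio -0.66). All 4 of these levels of Pax3 and Pax7 would stand below percentile 5 among the genes of at least 1 FPKM. The authors' status column lists Pax7 and Dbx2 as not tested for too few reads. Over the 6 dorsal and intermediate members the median log2 ratio was -0.87 (range -2.80 to 1.01), and over the 3 past 1 FPKM (Dbx1, Pax6 and Irx3) it was -1.48.

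FPKM is scaled per gene length, so the members can be set against each other within a genotype. The 10 members summed to 322 FPKM in the Hb9 cells and 39.3 in the A2 cells, an 8.18-fold lower sum. The ventral members summed to 283 FPKM in the Hb9 cells and 11.9 in the A2 cells (23.8-fold lower), and the other 6 to 38.6 and 27.4 (1.41-fold lower). The ventral members therefore held 88% of the summed level in the Hb9 cells and 30.2% in the A2 cells. Nkx6-1 alone held 49% of the sum in the Hb9 cells and 19% in the A2 cells. Pax6 held 6.97% in the Hb9 cells and 54.3% in the A2 cells, and Irx3 held 4.36% and 12.8%. The order of the levels in the Hb9 cells was Nkx6-1, Nkx2-2, Nkx6-2, Olig2, Pax6, Irx3, Dbx1, Dbx2, Pax3 and Pax7. In the A2 cells it was Pax6, Nkx6-1, Irx3, Nkx6-2, Nkx2-2, Olig2, Pax3, Dbx2, Dbx1 and Pax7. Without a spread over samples it is not known which neighbours in these orders differ.

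**Figure D3:**
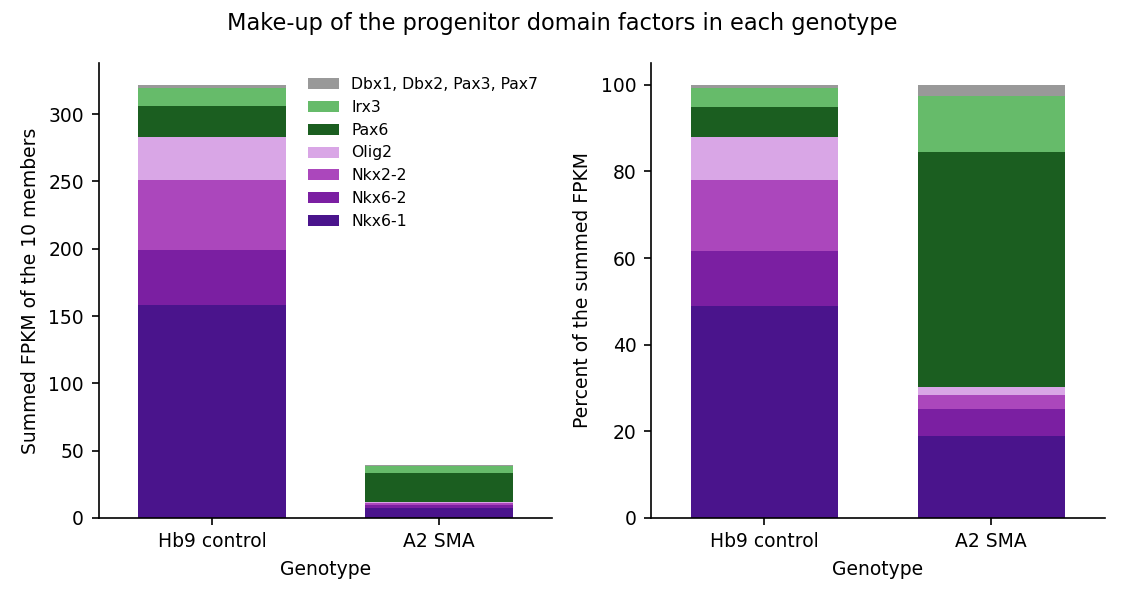
Summed FPKM of the 10 members (left) and each member's percent of that sum (right) in Hb9 control and A2 SMA cells, with ventral members in shades of purple, Pax6 and Irx3 in green and Dbx1, Dbx2, Pax3 and Pax7 together in grey. The column is 322 FPKM high in the Hb9 cells and 39.3 in the A2 cells, and the purple part is 88% and 30.2% of it.

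Ratios of factors known to repress each other across a boundary were higher for the dorsal partner in the A2 cells. Pax6 to Nkx2-2, the pair at the border of pMN and p3, was 0.427 in the Hb9 cells and 16 in the A2 cells. Irx3 to Olig2, the pair at the border of p2 and pMN, was 0.437 in the Hb9 cells and 7.13 in the A2 cells. Dbx1 to Nkx6-2 was 0.0301 and 0.074, a smaller shift, with both genes lower in the A2 cells. Pax6 to Olig2, a pair that occurs together in early pMN cells, was 0.699 in the Hb9 cells and 30.3 in the A2 cells. Pairs within the ventral set shifted less, with Nkx2-2 to Olig2 at 1.64 and 1.89 and Nkx6-1 to Nkx2-2 at 3 and 5.6. Each shift follows from the levels above and is not further evidence of them.

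Mnx1, the gene whose promoter drives the sorted GFP, was at 41.2 FPKM in the Hb9 cells and 44.2 in the A2 cells (log2 ratio 0.10). Nkx6-1 to Mnx1 was 3.83 in the Hb9 cells and 0.169 in the A2 cells, Olig2 to Mnx1 was 0.778 and 0.0159, and Pax6 to Mnx1 was 0.544 and 0.484. The ventral members were thus low relative to the sort marker, and Pax6 was not. Smn1, the deleted gene and a check of the labels, was at 137 FPKM in the Hb9 cells and 5.26 in the A2 cells (25.9-fold lower).

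Entries without a gene symbol, placed by the authors' transcript assembly, lay near some members, and they were looked for within 20 kb after the member values were seen. Of 4 such entries near Nkx6-1, all were lower in the A2 cells and 2 were listed at 0 there. Of the 4526 entries without a symbol that reached 1 FPKM in at least 1 genotype, 49.4% were lower in the A2 cells and 2.34% were listed at 0 there. All 4 reached 1 FPKM in the Hb9 cells only and so had to be lower in the A2 cells, and nothing is read from setting them against these shares. The one that starts 560 bp after Nkx6-1 was at 3.25 FPKM in the Hb9 cells and 0.101 in the A2 cells (log2 ratio -5.01), and the one that ends 7119 bp before it was at 2.12 and 0.115 (-4.20). The other two were at 6.54 and 12.1 FPKM in the Hb9 cells. Of 2 such entries near Olig2, one at 2814 bp before it was at 1.47 FPKM in the Hb9 cells and 0.135 in the A2 cells (-3.44), and one at 2538 bp before it was at 14.6 FPKM and listed at 0 in the A2 cells. Immp1l, 73 bp past the Pax6 locus, was at 4.19 FPKM in the Hb9 cells and 2.99 in the A2 cells (-0.49).

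Other genes of the same domains were read from lists written from general knowledge, over list genes that reached 1 FPKM in at least 1 genotype. A gene that passed in the Hb9 cells only had to be lower in the A2 cells, so the counts and medians of the lists describe the genes that passed and no more. Each count is to be read beside the 22.4% of all genes at least 2-fold lower and the 6.83% at least 2-fold higher. In the floor plate list, 8 of 8 genes were at least 2-fold lower in the A2 cells (median log2 ratio -2.36), against 22.4% of all genes. Shh itself, the ligand, was at 67.2 FPKM in the Hb9 cells and 12.6 in the A2 cells (-2.42). Foxa2, which induces floor plate, was at 55.9 FPKM and 18.2 (-1.62), its relative Foxa1 at 8.82 and 3.76 (-1.23) and Ferd3l at 4.76 and 0.968 (-2.30). The secreted guidance proteins of the midline were also lower, with Ntn1 at 383 and 48.5 FPKM (-2.98), Spon1 at 196 and 19.8 (-3.31) and Slit1 at 258 and 16.3 (-3.98). In these lists the Hb9 value is given first.

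The pMN and p3 list, beyond the members, held 5 genes past the limit, of which 4 were at least 2-fold lower and 1 lay within 2-fold (median -2.04). Neurog2, the proneural partner of Olig2 in MN formation, was at 19.9 FPKM and 0.225 (-6.47). Olig1, the neighbour of Olig2 on the chromosome, was at 8.46 FPKM and 0.597 (-3.83). Nkx2-9, a relative of Nkx2-2 in p3, was at 48.9 FPKM and 11.9 (-2.04), Neurog3 at 10.5 and 4.12 (-1.35) and Foxp4 at 73.4 and 37.6 (-0.96). Nkx2-9 thus differed by less than Nkx2-2 and was the more abundant of the pair in the A2 cells.

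Of 8 genes of p0 to p2 past the limit, 7 were at least 2-fold lower (median -3.79). Of the 8, 6 reached 1 FPKM in the Hb9 cells only, so this median cannot be set against Irx3 or Pax6, which reached it in both. The Iroquois relatives of Irx3 were at 18.3 and 0.89 FPKM for Irx1 (-4.37), 14.3 and 4.68 for Irx2 (-1.61) and 5.39 and 0.974 for Irx5 (-2.47). Prdm8, a p1 and p2 gene, was at 14.1 and 0.213 (-6.05), Prdm12 at 1.21 and 0.105 (-3.53), Sp8 at 7.99 and 0.305 (-4.71) and Bhlhe22 at 10.6 and 0.636 (-4.05). Foxn4, which directs p2 interneuron fates, was at 5.89 and 4.24 FPKM (-0.47).

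In the dorsal progenitor list, 3 of 6 genes past the limit were at least 2-fold lower, 1 was at least 2-fold higher and 2 lay within 2-fold (median -1.52). The proneural gene Neurog1 (22.4 and 1.35 FPKM, -4.06) was lower in the A2 cells, as was Msx1 (1.07 and 0.245, -2.12). Msx2 was at 0.521 and 1.18 FPKM (1.18), Gbx2 at 12.9 and 6.82 (-0.92) and Olig3 at 1.6 and 1.59. In the roof plate list, 1 of 3 genes past the limit was at least 2-fold lower (median -0.85), against 22.4% of all genes. That gene was Wnt1 at 2.38 and 0.978 FPKM (-1.28), while Bmp6 was at 3.27 and 1.81 (-0.85) and Rspo1 at 1.88 and 2.89 (0.62). Apart from Neurog1 and Gbx2, the named dorsal genes were thus at low levels in both genotypes, as Pax3 and Pax7 were.

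**Figure D4:**
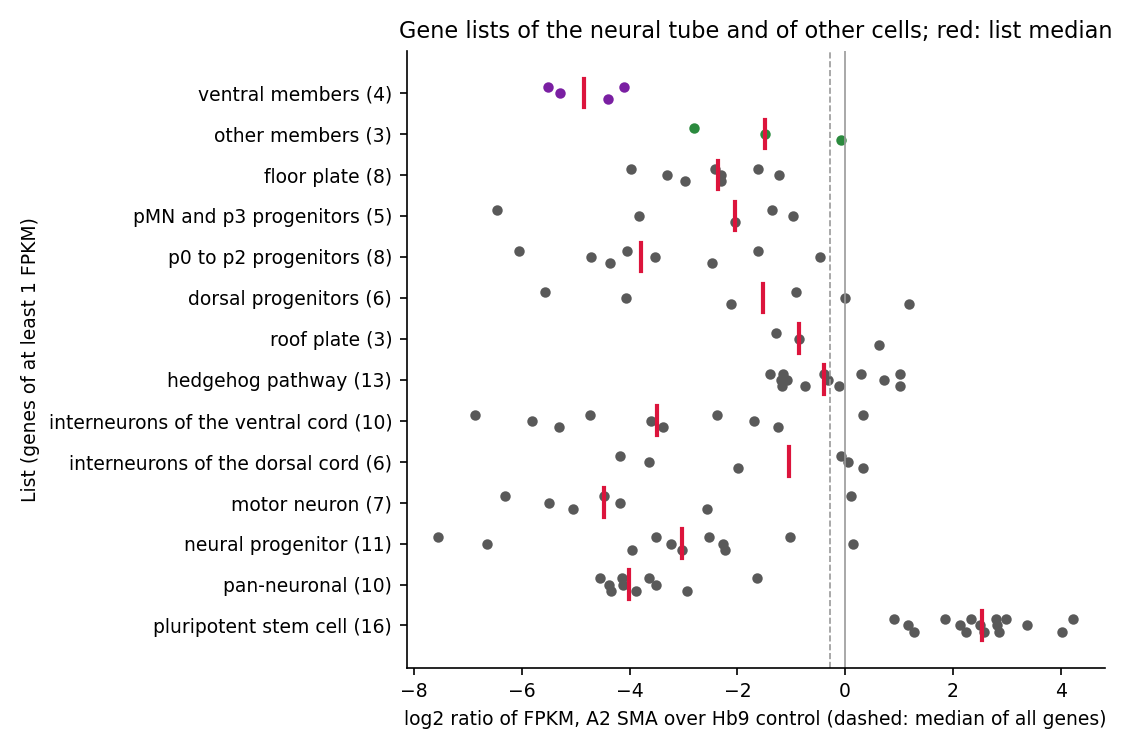
Log2 ratio of FPKM, A2 SMA over Hb9 control, for the members past 1 FPKM (purple ventral, green other) and for genes of other lists (grey points), with the number of genes in parentheses, list medians as red bars, a solid line at 0 and a dashed line at the median of all genes (-0.29). The ventral members have a median of -4.85, the neural progenitor and pan-neuronal lists have medians of -3.02 and -4.0, and the pluripotent stem cell list lies on the other side of 0 at 2.54.

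Of the 13 hedgehog pathway genes, 5 were at least 2-fold lower, 2 at least 2-fold higher and 6 within 2-fold in the A2 cells (median -0.40). Over all genes, 22.4% were at least 2-fold lower and 6.83% at least 2-fold higher. Ptch1, the Shh receptor and itself a target of the pathway, was at 129 and 104 FPKM (-0.32). Smo, the target of SAG, was at 36.7 and 16.4 (-1.17), Sufu, an inhibitor of Gli factors, at 45.7 and 20.6 (-1.15) and the coreceptor Boc at 6.81 and 2.58 (-1.40). Gli1, a transcription factor induced by hedgehog signaling, was at 8.86 and 17.9 FPKM, and Gli2 was at 6.85 and 13.8, each with a log2 ratio of 1.01. Whether hedgehog signaling bears on the levels of the members was not tested. The authors' status column reads FAIL for Ptch1 and Gli1, which marks a failed calculation of Cuffdiff, and likewise for Fgfr3, Foxp4, Ntn1, Slit1, Rarg, Aes, Tle3, Tle4, Lmx1b, Utf1, Stmn2, Otx2 and Pdgfra. None of the 10 members has it.

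Of the 14 genes of the RA pathway past the limit, 10 were at least 2-fold lower, 1 was at least 2-fold higher and 3 lay within 2-fold (median -1.56). The binding proteins of RA were lower, with Crabp1 at 1130 and 88.3 FPKM (-3.68) and Crabp2 at 231 and 21 (-3.46). Rarg, an RA receptor, was at 12.5 and 65.5 (2.39). The Groucho corepressors, through which several members act, were all within 2-fold (5 of 5, median -0.73), with Aes at 156 and 138 FPKM (-0.17), Tle3 at 139 and 83.6 (-0.74), Tle1 at 56.9 and 34.2 (-0.73), Tle2 at 9.74 and 5.38 (-0.86) and Tle4 at 25.5 and 45.3 (0.83).

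The neurons that arise from these domains gave the following values. In the list of ventral interneurons, 9 of 10 genes past the limit were at least 2-fold lower (median -3.49, with 6 past it in the Hb9 cells only), with Lmo4 at 41.8 and 17.6 FPKM (-1.25), Gata2 at 20.7 and 4 (-2.37) and Gata3 at 15.8 and 4.86 (-1.70). Foxd3, which the lists of dorsal interneurons and neural crest also hold, was at 2.9 and 3.65 (0.33). In the list of dorsal interneurons, 3 of 6 were at least 2-fold lower and 3 lay within 2-fold (median -1.03), with Isl1 at 108 and 5.95 FPKM (-4.18), Lmx1b at 13 and 12.3 (-0.08) and Pax2 at 5.19 and 0.416 (-3.64). In the MN list, 6 of 7 were at least 2-fold lower, against 22.4% of all genes, and only Mnx1 lay within 2-fold (median -4.47). Of the 7, 3 passed the limit in the Hb9 cells only and so had to be lower. Lhx3, a cofactor of Isl1 in spinal MNs, was at 27.6 and 0.348 (-6.31). Chat, the acetylcholine synthesis gene of mature MNs, was at 15.5 and 0.344 FPKM. The A2 cells thus carried the sort marker Mnx1 while Lhx3 and Chat were under 1 FPKM.

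Markers of other cell states, read in the same sorted cells, differed beside the members. The sort would remove cells without GFP and dead cells, which take up propidium iodide, and how pure the sorted cells were is not known from the table. In the pluripotent stem cell list, 15 of 16 genes were at least 2-fold higher in the A2 cells, against 6.83% of all genes (median 2.54), and the list summed to 344 FPKM in the Hb9 cells and 2170 in the A2 cells. Pou5f1 was at 98.3 and 775 FPKM (2.98), Utf1 at 59.8 and 357 (2.58), Nanog at 41.4 and 236 (2.51), Lefty1 at 2.22 and 41.6 (4.23) and Tbx3 at 15.4 and 28.7 (0.90). In the neural progenitor list, 10 of 11 genes were at least 2-fold lower (median -3.02), and its sum was 2850 FPKM in the Hb9 cells and 495 in the A2 cells. Vim was at 1440 and 178 FPKM (-3.02), Fabp7 at 553 and 5.52 (-6.65) and the Notch target Hes5 at 65.3 and 0.349 (-7.55), while Sox2, shared by neural progenitors and pluripotent cells, was at 179 and 197 (0.14). In the pan-neuronal list, 10 of 10 were at least 2-fold lower (median -4.0, sums 1500 and 145 FPKM), with Nefm at 359 and 15.2 (-4.56), Nefl at 297 and 17 (-4.13) and Stmn2 at 242 and 78 (-1.63). The part of these differences in cell state in the levels of the members was not tested.

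Several members also belong to tissues other than the neural tube, so markers of those tissues were read beside them. Nkx2-2, Nkx6-1 and Pax6 are also pancreas genes, and in the pancreas list 4 of 5 genes past the limit were at least 2-fold lower (median -2.48, sums 109 and 16.2 FPKM). Those were led by Insm1 (45.1 and 2.85, -3.98), Neurod1 (27.6 and 4.94, -2.48) and Sst (25 and 1.94, -3.68), which neurons also use, and Mafa was at 2.52 and 4.43 (0.81). The defining pancreas gene Pdx1 was at 0.0399 and 0.0783 FPKM, and Ins1 and Gcg were listed at 0 in both genotypes. Pax3 and Pax7 also mark muscle precursors and neural crest. In the muscle list, 1 of 3 genes past the limit was at least 2-fold lower (median 0.04, sums 24.2 and 17.7), against 22.4% of all genes. Meox1 was at 10.1 and 3.58 (-1.50) and Met at 3.38 and 3.53 (0.06), and the defining genes Myf5 and Myod1 were under 0.1 FPKM in both genotypes. In the neural crest list, 2 of 7 were at least 2-fold lower and 1 was higher, against 22.4% and 6.83% of all genes (median -0.45, sums 87.6 and 25.5). Ngfr was at 66.3 and 9.24 (-2.84), Ets1 at 7.7 and 5.62 (-0.45), Sox10 at 6.48 and 0.525 (-3.62) and Mitf at 1.75 and 4.19 (1.26).

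Pax6 is also a gene of forebrain and eye. In that list 1 of 4 genes past the limit was at least 2-fold higher in the A2 cells and 3 lay within 2-fold (median 0.47, sums 29.4 and 41.2 FPKM), with Otx2 at 19 and 25.8 (0.44), Hesx1 at 4.08 and 9.35 (1.19) and Lhx2 at 3.89 and 4.06 (0.06). Rax, an eye field gene, was at 0.155 and 0.152 FPKM. Olig2, Nkx2-2 and Olig1 also belong to oligodendrocyte precursors, and 4 of the 5 genes of that list past the limit were at least 2-fold lower (median -3.83, sums 105 and 6.71), of which Olig2 and Nkx2-2 are members themselves. Of the 5, 3 passed the limit in the Hb9 cells only and so had to be lower. Pdgfra, which defines those precursors, was at 5.2 and 3.22 FPKM (-0.69). Whether cells of these kinds contributed to the level of Pax6 or of the ventral members was not tested.

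The direction of each ventral member was the same on every scale tried, but that of Irx3, Dbx1, Dbx2, Pax6 and Pax7 was not. Centred on the median gene, the ventral members lay between -5.22 and -3.81. Centred on the median of the neural progenitor list (a shift of -3.02), Nkx6-2 was at -1.08, Nkx6-1 at -1.39, Nkx2-2 at -2.29 and Olig2 at -2.49. On that scale Irx3 was at 1.53, Dbx1 at 0.22, Dbx2 at 1.94, Pax7 at 2.35 and Pax6 at 2.94. Relative to the median of that list the ventral members were thus lower in the A2 cells, and Irx3 and Pax6 were higher. The 11 genes of the list ranged from -7.55 to 0.14, so all 4 ventral members lie within its spread, and Hes5 and Fabp7 were lower than any of them. The reference genes Gusb, Pgk1 and Rpl13a, with log2 ratios of -0.46, -0.10 and 0.14, gave a shift of -0.10.

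**Figure D5:**
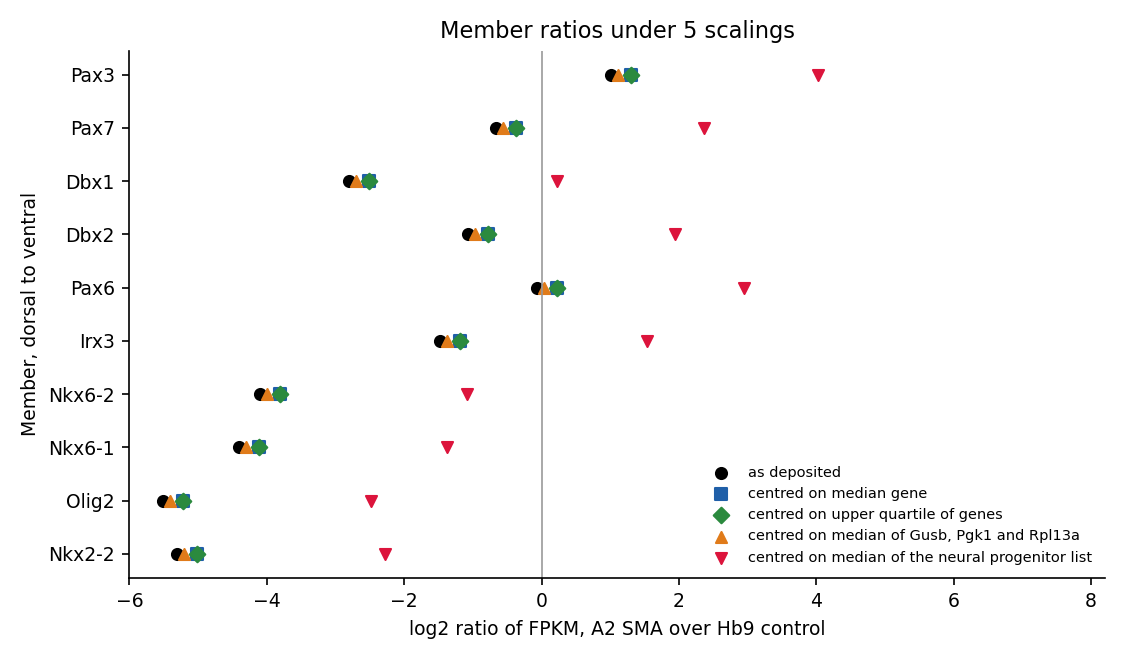
Log2 ratio of FPKM, A2 SMA over Hb9 control, of each member as deposited (black) and after centring on the median gene, the upper quartile, the 3 reference genes or the neural progenitor list (red triangles). The 4 ventral members stay below 0 under each scaling, Irx3, Dbx1, Dbx2 and Pax7 pass to the right of 0 only under centring on the neural progenitor list, and Pax6 does so under all 4 centrings (0.22 on the median gene and on the upper quartile, 0.02 on the reference genes, 2.94 on the neural progenitor list).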

How the data were processed

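RNA of GFP-positive, propidium iodide-negative cells was sequenced by the authors after TruSeq library preparation, in 3 samples per genotype. Per the study's methods and the submitters' processing notes, reads were checked with FastQC 0.10.1, trimmed with CutAdapt, mapped with TopHat 2.04 (build NCBI m37, annotation from Ensembl), and assembled and measured with Cufflinks, and genotypes were compared with Cuffdiff. The deposited table holds FPKM values, 1 per gene and genotype, computed by the authors from all 3 samples. Its status column marks entries that Cuffdiff compared, did not test or failed on. Its columns of fold change, test statistic, p and q hold the authors' comparison and were not used. Depth per sample was not used here. The table's start positions count from 0: 8986 of 18176 loci of single genes equal the GENCODE gene length under that reading and 252 under the other, so 1 was added.

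Log2 ratios were formed from the FPKM values without a pseudocount, in Python 3.11.15 (pandas 2.3.3, numpy 2.4.6), and figures were drawn in matplotlib 3.10.9. The background was the genes that reached 1 FPKM in at least 1 genotype and were above 0 in both, and differences of 2-fold and 4-fold were counted. Alternatives were a pseudocount of 0.1 or 1 FPKM, no limit or a limit of 5 FPKM, 4 centrings, sums over entries, and entries with the status FAIL left out. The scripts were tested on simulated data. All members are named, all domain genes of at least 1 FPKM, and of other lists the 3 highest and the extremes of the ratio, except a few genes that are not reported here. Chat, Ins1, Gcg, Myf5, Myod1, Pdx1 and Rax were named beside them as defining markers after their values were seen. Members and lists were chosen with earlier results of these data known. Coordinates are NCBI m37, except those of promoter sequences (RefSeq, GRCm38.p6), and the builds were not converted. Motifs were searched on both strands in the 250 bases before each RefSeq start.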

Additional observations from a re-analysis of the deposited data

How the results depend on the processing

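No paired analysis was possible because the table gives 1 value per genotype, and no sample could be left out for the same reason. Many alternative values could not move by construction. Each member has 1 entry and none has the status FAIL, so summing entries or leaving out FAIL returned the same member values. Centring on the median gene, the upper quartile or the reference genes shifts every log2 ratio by -0.29, -0.29 or -0.10, each under 1.5-fold. The number that stayed the same is therefore no measure of stability. Of 118 alternative values, 92 stayed within 1.5-fold of the reported value, 22 moved by more and 4 that differed by 2-fold or more as reported changed sign. These 4 all came from centring on the neural progenitor list, which subtracts that list's shift: Dbx1 went to 0.22, Dbx2 to 1.94, Irx3 to 1.53 and the median of the dorsal and intermediate members to 1.53, while the ventral median went to -1.84. Within 2-fold as reported, Pax6 went above 0 under all 4 centrings, to 0.22 on the median gene or the upper quartile, 0.02 on the reference genes and 2.94 on that list, and Pax7 to 2.35 on that list. A pseudocount of 1 FPKM brought the ventral median to -4.25, and by its construction it draws low levels together (Dbx1 to -0.92, Dbx2 to -0.25, Pax3 to 0.29, Olig2 to -4.28, Nkx2-2 to -4.52). The median of the dorsal and intermediate members, -1.48, was -0.87 with no limit on level and -0.78 with a limit of 5 FPKM, since different members pass. With no limit, 1 member (Pax3) was at least 2-fold higher, and with the limit 0 were. Without Nkx6-1, the member of the highest FPKM, the ventral share of the summed level in the A2 cells was 13.9%, not 30.2%. The share of all genes at least 2-fold higher was 6.83% as reported, 4.38% with a pseudocount of 1 FPKM and 10.4% (16.5% lower, against 22.4%) after centring on the median gene. The number of reads behind values under 1 FPKM is unknown.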
